A study of Papio hamadryas with 12 samples.

Results

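Of 9091 autosomal genes measured well enough in baboon blood, 83 had levels that separated the low from the high LDL-C baboons on both diets. In 80 of them all 6 libraries of the high LDL-C baboons lay above all 6 libraries of the low LDL-C baboons, and in 3 they lay below. The genes were selected on these same values: the counts of each gene were scaled to CPM (each library's counts brought to the same total) on the library total without the 2 most abundant genes, and autosomal genes with a mean CPM of 5 or more over the 12 libraries were taken, out of 27533 genes in the files. The difference between the phenotypes is therefore what the selection asked for. It is described below without a test. The diet response was tested over all genes, but the selection also bears on it, since both libraries of a baboon had to lie on the same side, and the values of the 83 genes in those tests are likewise a description.

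The libraries came from 6 adult baboons (Papio hamadryas), of which 3 had low and another 3 had high LDL-C. Blood was drawn from every animal on a chow diet and again after a high-cholesterol, high-fat (HCHF) diet. The chow diet was low in fat and cholesterol, and all 6 baboons received both diets. Ketamine sedation, atropine and intubation preceded sampling in the animals, and the methods name no other treatment of a group. RNA was taken from the buffy coat, the layer of white blood cells and platelets that forms between plasma and red cells when blood is centrifuged. The low LDL-C baboons are called L1 to L3 and the high LDL-C baboons H1 to H3, in no order. The methods state that the animals were half-sib pairs discordant for LDL-C. The labels do not show which animals were paired, so that the shared parent was not modelled. Age and sex are not given in the labels and were not modelled either.

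LDL carries cholesterol in plasma to the tissues, and its level is set largely by how fast liver cells take it up through the LDL receptor. White blood cells meet LDL in the circulation, and monocytes that enter the artery wall take up modified LDL and become foam cells, an early step of atherosclerosis. In bulk RNA fewer cells of a type and less RNA per cell cannot be told apart.

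The files pair Ensembl gene IDs with positions on the PapAnu2 assembly and not with gene symbols. Genes are therefore given by position, with the ID for the 2 genes in each direction whose phenotypes stood farthest apart, and nothing is said of their function. The markers that would check the buffy coat or show other blood cells could not be looked up for the same reason.

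Total counts per library ranged from 3434628 in the HCHF library of H3 to 8518137 in the chow library of L2. The 2 most abundant genes, at 60046720 to 60049466 of chromosome 14 and at 39182 to 41379 of chromosome 20, took 43.5% to 63.9% of the counts in 9 libraries. They took 89.3% in the chow library of L2, 16.8% in the chow library of L1 and 16.3% in the HCHF library of H3. What was left ranged from 915087 counts in the chow library of L2 to 3872759 in the chow library of L1, so that 1 count was worth 1.09 CPM in the former and 0.258 CPM in the latter. Mitochondrial genes took 15.9% to 42.2% of these remaining counts. The methods describe 1 pool of libraries, yet each of the 6 index sequences in the labels occurs in 1 library of either phenotype. Libraries that share an index cannot lie in the same pool, and no label names a pool or lane. Whether the pools followed the phenotype is thus not known, and an effect of pool could not be separated from one of phenotype.

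Of the tested genes, 0.880% belonged to the 80 with higher levels at high LDL-C, and 0.0330% to the 3 with lower levels. Among the 80, the mean of the high LDL-C libraries was 1.40 to 4.34 times that of the low LDL-C libraries, with a median of 1.91. Over all 9091 tested genes the same ratio had a median of 1.29, and 7417 genes (81.6%) had the higher mean in the high LDL-C libraries. On this scale most genes therefore leaned the way of the 80, and by 0.37 on the log2 scale for the median gene. With TMM scaling, which sets the bulk of the genes level between libraries, the median ratio of all tested genes was 1.001 and that of the 80 was 1.52. All 80 kept a higher mean in the high LDL-C libraries under TMM, although most no longer separated every library. The selection on the same counts favours both this and the ratio of 1.52, so that nothing is read from them.

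The distance between the phenotypes was small for most of the 80. The gap, defined as the log2 ratio of the lowest high LDL-C library to the highest low LDL-C library after adding 0.5 CPM to each, had a median of 0.077 and ranged from 0.00047 to 0.55. It was under 0.1 in 45 of the 80, and another 104 genes had a gap less than 0.1 below 0. In 4 genes the gap was exactly 0, which is a tie and does not separate the phenotypes. Just inside the rule was a gene on chromosome 11 from 122289039 to 122294204, with 22.2138 CPM in its lowest high LDL-C library and 22.2064 CPM in its highest low LDL-C library. Next to it was a gene on chromosome 20 from 51592317 to 51608073, with 150.737 against 150.539 CPM. Nearest below 0 was a gene on chromosome 13 from 26403017 to 26408447, with 46.4562 against 46.4785 CPM. It was followed by a gene on chromosome 8 from 69770037 to 69784151, with 18.5735 against 18.5914 CPM. For the lower genes the nearest misses were farther off, at -0.15 (chromosome 3, 128402448 to 128436356) and -0.19 (chromosome 10, 42026786 to 42027533). The exact Poisson 95% intervals of the 2 libraries at the edge overlapped in all 80 genes. These intervals cover counting error only.

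The level of each of the 80 genes was divided by its own mean over the libraries and summarised by the median in each library. The step from low to high LDL-C in these medians is what the selection asked for. In the low LDL-C baboons their median was 0.92 in L1, 0.45 in L2 and 0.88 in L3 on chow, and 0.53, 0.79 and 0.49 on the HCHF diet. In the high LDL-C baboons it was 1.23 in H1, 1.27 in H2 and 1.27 in H3 on chow, and 1.19, 1.48 and 1.23 on the HCHF diet. The low LDL-C libraries thus spread over a wider range than the high LDL-C ones, and in L1 and L3 the chow library was the higher while in L2 it was the lower. All tested genes had medians of 1.08, 0.49 and 1.11 in the low LDL-C chow libraries and of 0.71, 0.81 and 0.70 in the low LDL-C HCHF libraries, with the same order within each baboon. In the high LDL-C libraries all tested genes had medians from 0.90 to 1.16, and the lowest of these was the HCHF library of H2, in which the 80 genes were at their highest. The selection favours this contrast, since the 80 genes had to stay above every low LDL-C library there as well.

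**Figure D1:**
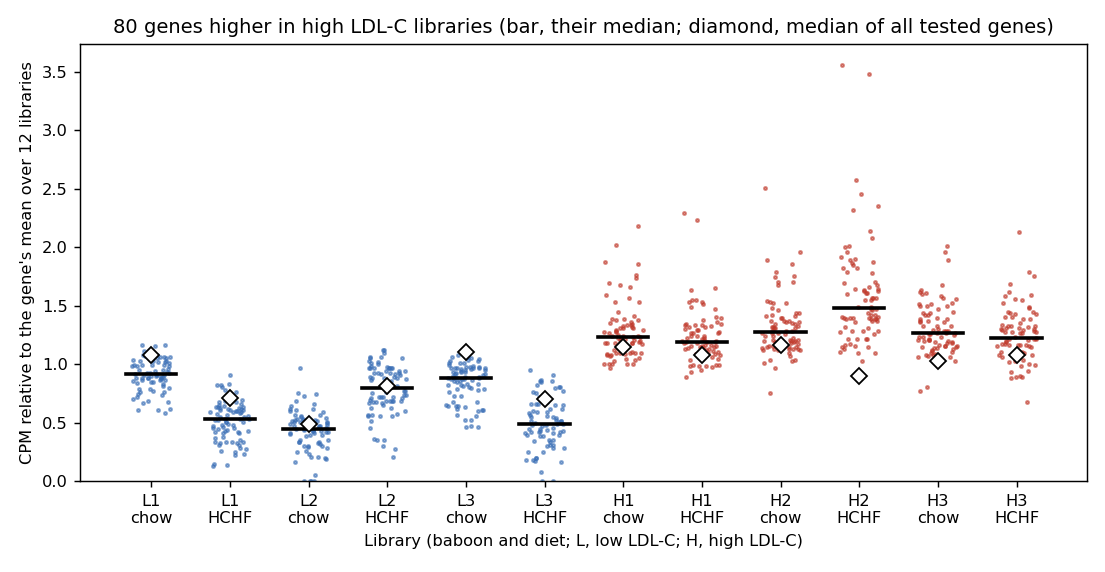
CPM of the 80 genes that were higher in high LDL-C baboons, divided by each gene's mean over the 12 libraries, in each library (points, genes; bars, their median; diamonds, median of all tested genes). The bars lie between 0.45 and 0.92 in the low LDL-C libraries and between 1.19 and 1.48 in the high LDL-C libraries, and the diamonds of the low LDL-C libraries rise and fall with the bars.

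A few libraries set the edges. The highest low LDL-C library was the chow library of L1 in 36 of the 80 genes, the chow library of L3 in 21 and the HCHF library of L2 in 19. The lowest of all was the chow library of L2 in 36 genes and the HCHF library of L3 in 26. The former had the fewest counts outside the 2 most abundant genes. On the high LDL-C side the lowest library was spread over the animals, from 5 genes for the HCHF library of H2 to 20 for the HCHF library of H1. The HCHF library of H2 was the highest in 35 genes. Without the chow library of L2 the counts were 80 higher and 4 lower, and without the chow library of L1 and the HCHF library of H3, where the 2 most abundant genes took the smallest share, they were 412 and 12. Leaving libraries out can only add genes, since fewer values have to be ordered. The part of the share of the 2 most abundant genes in these orders was not tested.

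The gene with the widest gap was ENSPANG00000008479, on chromosome 8 from 15216167 to 15292124. Its level on chow was 5.68 CPM in L1, 3.28 in L2 and 4.50 in L3, against 15.97 in H1, 14.5 in H2 and 9.09 in H3. On the HCHF diet it was 1.20 CPM in L1, 6.05 in L2 and 0 in L3, against 19.04 in H1, 9.77 in H2 and 13.2 in H3. The count of 0 in L3 allows a level of up to 1.52 CPM. The phenotypes did not overlap on either diet, and the mean was 13.6 ± 3.77 CPM (SD, n = 6 libraries of 3 baboons) in high and 3.45 ± 2.44 CPM in low LDL-C baboons. The libraries at the edge rested on 18 counts in the chow library of H3 and 14 in the HCHF library of L2. This gene also separated the phenotypes with TMM scaling, with a gap of 0.22.

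The second was ENSPANG00000010499, on chromosome 20 from 4073090 to 4092333. It had 22.5, 14.2 and 21.7 CPM in L1, L2 and L3 on chow and 16.8, 18.2 and 17.7 CPM on the HCHF diet. The high LDL-C baboons H1, H2 and H3 had 33.4, 30.8 and 37.4 CPM on chow and 34.9, 33.4 and 31.7 CPM on the HCHF diet. The mean was 33.6 ± 2.36 CPM in high and 18.5 ± 3.11 CPM in low LDL-C baboons (SD, n = 6 libraries of 3 baboons each). The gene was named for its wide gap, which favours a small spread. With TMM scaling the gap was -0.03, which means that the phenotypes overlapped.

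**Figure D2:**
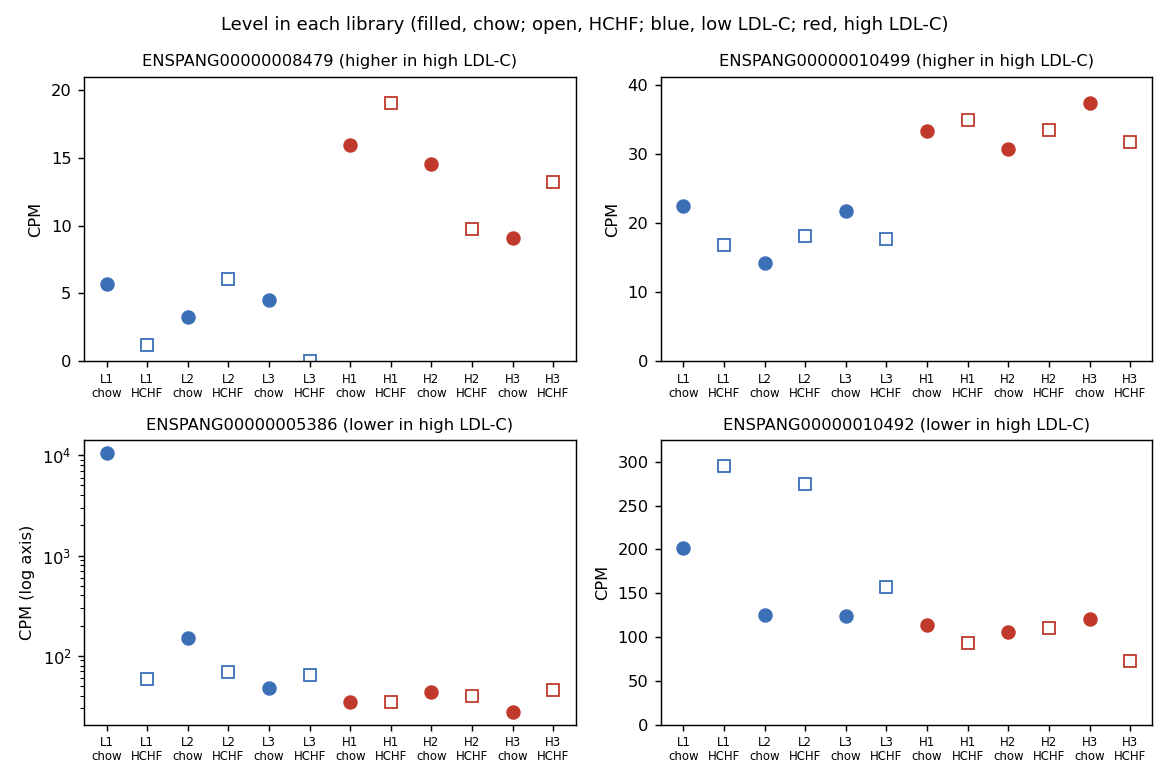
CPM of the 4 genes with the widest gap, 2 in each direction, in each of the 12 libraries (filled, chow; open, HCHF; blue, low LDL-C; red, high LDL-C; a log axis for ENSPANG00000005386). ENSPANG00000010499 lies at 30.8 CPM or more in the red libraries and at 22.5 CPM or less in the blue ones, and ENSPANG00000005386 owes its height in low LDL-C baboons to 1 library at 10441 CPM.

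Of the 80 genes, 17 separated the phenotypes with both TMM and DESeq2 scaling (the latter takes the median ratio of the genes of a library to their means), and 1 did so under all 4 scalings that were tried, full library total included. The latter lies on chromosome 11 from 3697486 to 3810403, and its gap on the full total was only 0.041. At the edge this gene rested on 19 counts in the HCHF library of H2 and 11 in the chow library of L3. It had 5.94, 4.37 and 8.24 CPM in L1, L2 and L3 on chow and 2.00, 3.03 and 4.55 CPM on the HCHF diet, against 15.3, 15.1 and 13.1 CPM in H1, H2 and H3 on chow and 9.92, 9.77 and 12.5 CPM on the HCHF diet. Its mean was 12.6 ± 2.40 CPM in high and 4.69 ± 2.20 CPM in low LDL-C baboons (SD, n = 6 libraries of 3 baboons each), a ratio of 2.69. Every baboon had less of it on the HCHF diet than on chow, and the fitted diet response was -0.49 ± 0.27 (log2, SE) with an adjusted p of 0.972 (edgeR).

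After ENSPANG00000008479, the widest gaps under TMM belonged to genes on chromosomes 10, 20, 16 and 1. A short gene on chromosome 10 from 544919 to 546255 had a minimum of 76.2, a median of 88.9 and a maximum of 117 CPM in high LDL-C libraries. In low LDL-C libraries these were 19.7, 37.4 and 63.5 CPM. A gene on chromosome 20 from 50158276 to 50160191 had the highest ratio of all 80, 4.34. It ranged from 13.1 to 56.6 CPM (median 20.9) in high and from 0 to 10.5 CPM (median 6.34) in low LDL-C libraries, and its highest value came from the HCHF library of H2. A gene on chromosome 16 from 44660608 to 44676970 lay near the lower limit of the selection, at 6.26 to 11.6 CPM (median 8.67) against 0 to 5.25 CPM (median 3.32). A gene on chromosome 1 from 4488213 to 4510664 had 27.8 to 37.4 CPM (median 31.5) against 8.74 to 24.7 CPM (median 17.3). In each of these genes the chow libraries of L1 or L3 came closest to the high LDL-C libraries.

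The 3 genes of the 80 with the highest mean CPM came next. A gene on chromosome 14 from 9347934 to 9366427 had 511 to 921 CPM (median 589) in high and 158 to 497 CPM (median 285) in low LDL-C libraries. The HCHF library of H2 stood above the other high LDL-C libraries, which ended at 604 CPM. A gene on chromosome 2 from 85479801 to 85488988 had 390 to 617 CPM (median 432) against 174 to 351 CPM (median 266). It lost its separation with TMM scaling, at a gap of -0.28. A gene on chromosome 1 from 9315284 to 9321033 had 255 to 442 CPM (median 315) against 39.9 to 229 CPM (median 100.3), and the chow library of L1 alone accounted for its highest low LDL-C value, the next being 150.4 CPM. The gene on chromosome 14 and this one separated the phenotypes with TMM and DESeq2 scaling as well.

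Counts of 0 occurred in 6 of the 80 genes, always in a low LDL-C library, and in 4 of these in the chow library of L2. A count of 0 there allows a level of up to 3.28 CPM. For the gene on chromosome 19 from 6506296 to 6517136 the low LDL-C libraries ranged from 0 to 6.92 CPM and the high LDL-C libraries from 6.97 to 12.4 CPM.

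The 3 lower genes each had a feature of their own. The widest gap, 0.08, belonged to ENSPANG00000005386, on chromosome 5 from 55576941 to 55587962. It had 10441 CPM in the chow library of L1 and 48.0 to 151 CPM in the other low LDL-C libraries, against 27.8 to 45.2 CPM in the high LDL-C libraries, so that a mean over the low LDL-C libraries describes only this 1 library. On the HCHF diet L1 had 58.4 CPM. ENSPANG00000010492, on chromosome 4 from 31871434 to 31873431, had 202, 126 and 124 CPM in L1, L2 and L3 on chow and 295, 275 and 157 CPM on the HCHF diet. In H1, H2 and H3 it had 114, 106 and 120 CPM on chow and 93.6, 111 and 73.1 CPM on the HCHF diet. It was higher on the HCHF diet than on chow in all 3 low LDL-C baboons and lower in H1 and H3, and its response in high minus that in low LDL-C baboons was -1.06 ± 0.51 (log2, SE), with an adjusted p of 1 (edgeR).

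The third lower gene, on chromosome 4 from 59439099 to 59468823, had a minimum of 31.2, a median of 43.6 and a maximum of 74.4 CPM in low and of 8.74, 15.2 and 30.9 CPM in high LDL-C libraries. Its closest libraries were the chow library of L1 and the HCHF library of H1, and the other high LDL-C libraries had 17.7 CPM or less. It was the only one of the 3 that also separated the phenotypes with TMM and with DESeq2 scaling.

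**Figure D3:**
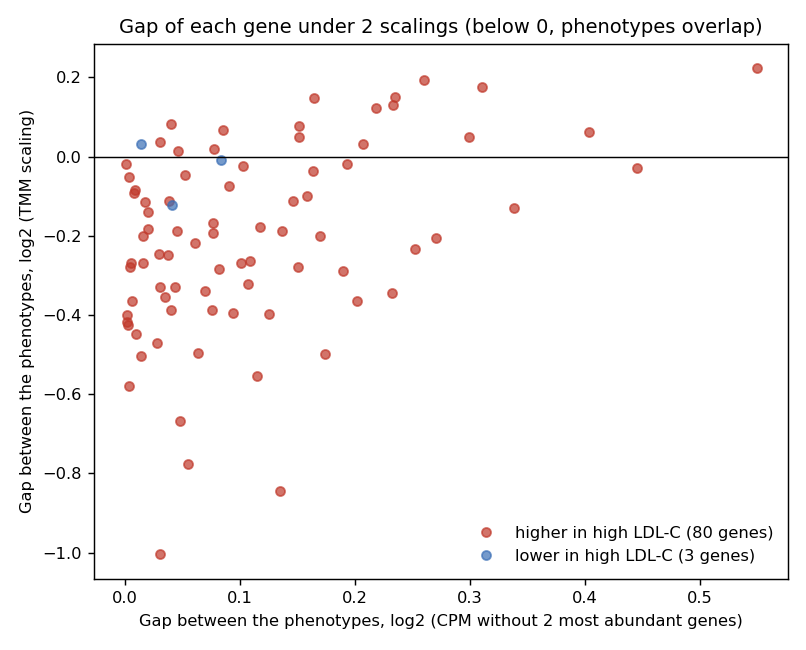
Gap between the phenotypes (log2) of each of the 83 genes on the CPM scale used for the selection (horizontal axis) and with TMM scaling (vertical axis; red, higher and blue, lower in high LDL-C). Points above the line at 0 stayed separated with TMM, which held for 17 of the 80 higher genes and 1 of the 3 lower genes.

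The number of genes and their direction depended on the scaling. With TMM 21 genes separated upward (0.231%) and 14 downward (0.154%) in high LDL-C libraries, and with DESeq2 size factors 28 were higher (0.308%) and 12 lower (0.132%). On the full library total 12 were higher and 3 lower, 4 of the 80 genes and 0 of the 3 among them. The share of higher genes was 96.4% on the scale of the selection, 80% on the full total, 60% with TMM and 70% with DESeq2. TMM and DESeq2 scaling together separated 4 higher and 11 lower genes that the selection did not hold. Scaling to autosomal counts alone gave 64 higher and 2 lower genes, of which 37 and 1 were among the 83. The same total without mitochondrial genes gave 64 and 2, of which 35 and 1 were among the 83. These last scalings were chosen after the data were seen.

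**Figure D4:**
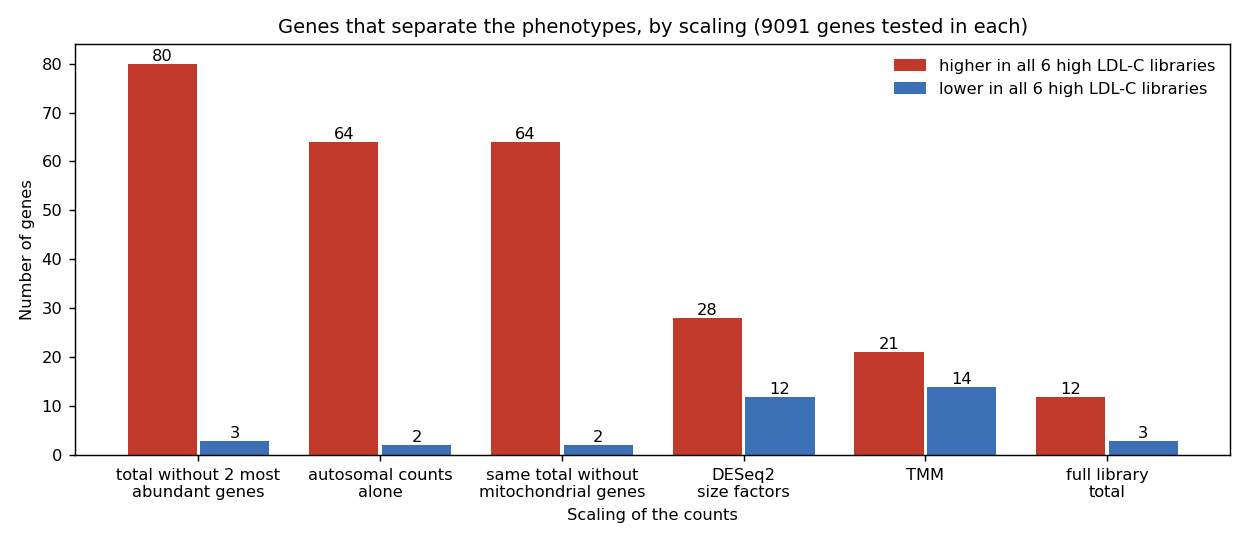
Number of genes (vertical axis) in which all 6 high LDL-C libraries lay above (red) or below (blue) all 6 low LDL-C libraries, for 6 scalings of the counts over the same 9091 genes. The red bars fall from 80 on the scale of the selection to 21 with TMM and 12 on the full library total, and the blue bars are highest, at 14, with TMM.

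Each baboon gave 2 libraries, so that 3 animals, not 6, stood on each side. The same rule was applied to the 9 other divisions of the 6 baboons into 3 and 3. On the scale of the selection these gave 15 to 70 genes in both directions together, with a median of 24, against 83 for the phenotypes. The division with 70 set H1, H3 and L1 against H2, L2 and L3. With TMM scaling the phenotypes gave 35 genes and the other divisions 9 to 98 (median 28), and 4 of the 9 gave at least as many as the phenotypes. With DESeq2 size factors the phenotypes gave 40 and the others 10 to 97 (median 28), again with 4 of the 9 at or above. These counts describe the 6 baboons, and no test was made of them.

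Each diet alone separated more genes, as fewer libraries had to be ordered. The 3 chow libraries of the high LDL-C baboons lay above the 3 of the low LDL-C baboons in 698 genes (7.68%) and below them in 84 (0.924%). On the HCHF diet the counts were 1642 (18.1%) and 99 (1.09%). In 232 genes the high LDL-C libraries were higher on both diets when each diet was compared within itself, and the 80 genes are the part of these in which the diets also did not cross. With TMM scaling the chow libraries separated 412 genes upward and 339 downward and the HCHF libraries 343 and 467, so that with TMM the higher genes were the larger number on chow and the lower genes on the HCHF diet.

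The rule disfavours genes that move far with diet, because both libraries of a baboon must lie on the same side. A small diet response of the 83 genes is thus partly fixed by the selection, and nothing is read from their counts in the tests of diet. Over all 12588 genes in the fit (mean CPM of 1 or more), edgeR called 0 genes (0% higher and 0% lower) by the thresholds of p under 0.05 and adjusted p under 0.20, while without adjustment 272 genes (2.16%) passed 0.05 upward and 363 (2.88%) downward. DESeq2 called 19 upward and 31 downward and gave no adjusted p for 7077 genes. Of the 80 higher genes, 0 were called and 0 had an unadjusted p under 0.05, with the lowest adjusted p at 0.969 (edgeR). Their fitted log2 change on the HCHF diet ran from -0.49 to 0.62 with a median of 0.05, against -0.01 over all genes. The largest of these, in a gene on chromosome 10 from 63452822 to 63454585, was 0.62 ± 0.33 (log2, SE).

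A difference between the phenotypes in their diet response was called in 32 of 12588 genes (0.254%), all with the higher log2 change in high LDL-C baboons, and in 0 of the 83. DESeq2 called 3 with a higher and 1 with a lower change, and edgeR called 0 without L1 and 0 without H3, 3 without H2, 65 without H1 and 86 without L3. Without adjustment 477 genes (3.79%) passed 0.05 with a positive and 138 (1.10%) with a negative difference, and 0 of the 83 did. The lowest adjusted p of the 83 was 1 (edgeR). For the 80 genes the fitted difference had a median of 0.26 on the log2 scale and ran from -0.70 to 1.80. The largest belonged to the gene on chromosome 20 from 50158276 to 50160191, at 1.80 ± 0.88 (log2, SE). With summed libraries per baboon, the comparison of high with low LDL-C baboons over all genes called 0 in either direction, and without adjustment 169 (1.34%) passed 0.05 upward and 357 (2.84%) downward. DESeq2 called 0 upward and 35 downward, the direction opposite to that of the 80 genes, and gave no adjusted p for 10278 of the 12588 genes. This comparison is the one the selection used, so that nothing is read from the values of the 83 genes in it.

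The single baboons are given one by one. The selection bears on these changes too, because every library had to stay on its side in the 80 genes. Nothing is therefore read from how the 80 differ from all tested genes. On the scale of the selection the median log2 change of the 80 genes from chow to the HCHF diet was -0.80 in L1, where 79 of 80 went down, and -0.82 in L3, where 73 did. It was 0.90 in L2, where 74 went up. All tested genes had medians of -0.57, -0.61 and 0.70 in the same baboons. In H1 and H3 the 80 genes had medians of -0.01 and -0.09, with 42 and 51 of 80 going down. In H2 they went up in 58 genes with a median of 0.20, while all tested genes had a median of -0.29. With TMM scaling the medians of the 80 were -0.25 in L1, 0.28 in L2, -0.25 in L3, 0.08 in H1, 0.54 in H2 and -0.17 in H3, while those of all tested genes lay between -0.03 and 0.08. The low LDL-C baboons thus did not share a direction under either scaling.

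Some features that the rule did not use differed in their median between the 80 genes and all tested genes. Their median span from first to last base was 13576 bp against 24201 bp for all tested genes. The median number of other genes within 500 kb was 29 against 16, with a lower quartile of 16 against 10, and 22 of the 80 lay at or below the median of all tested genes. The lowest number among the 80 was 4. The mean CPM, on which the rule did set a lower limit, also had a higher median in the 80 genes, 31.0 against 23.1 for all tested genes. The features given here were not adjusted for it. Chromosomes 14, 16, 19 and 20 held 36 of the 80 (45.0%), against 24.9% of the tested genes. These chromosomes were picked after the counts were seen. Chromosome 14 and chromosome 16 each held 10 of the 80, chromosome 19 held 9, and chromosomes 5, 17 and 18 held 0. Of the 17 genes that also separated with TMM and DESeq2 scaling, 7 lay on these 4 chromosomes and 5 of them on chromosome 14. The median span of the 17 was 15316 bp and they too had a median of 29 genes within 500 kb. No test was made of these shares.

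**Figure D5:**
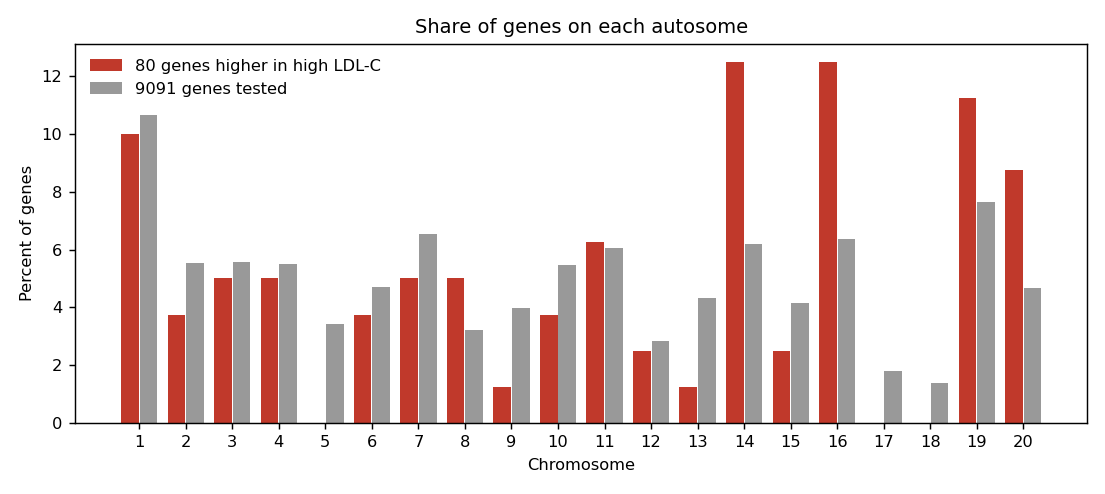
Percent of the 80 genes that were higher in high LDL-C baboons (red) and of the 9091 tested genes (grey) on each autosome. Chromosomes 14 and 16 each hold 12.5% of the 80 genes, against 6.18% and 6.38% of the tested genes.

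Some of the genes were neighbours. The closest pair lay on chromosome 2, from 83337032 to 83342149 and from 83343655 to 83354212, 1506 bp apart. The first had 26.1 to 39.0 CPM (median 29.5) in high and 6.56 to 24.7 CPM (median 15.4) in low LDL-C libraries. The second had 58.6 to 70.5 CPM (median 61.3) against 21.2 to 54.9 CPM (median 41.1). The first kept its separation with TMM scaling and the second did not. The spans of this pair do not overlap. The sources used here do not state whether strand was used in counting, and whether close neighbours shared reads was not tested. On chromosome 14, 4 of the 80 genes lay between 8518347 and 10164812, and 2 of these, the first from 8518347 to 8539395 and that from 9347934 to 9366427, also separated with TMM. On chromosome 16, 3 genes lay between 73145527 and 74016835, and none of them did.

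Most of the 80 genes had a single transcript in the files. Another 14 (17.5%) had 2 listed transcripts, while 12.1% of all tested genes had more than 1. The gene on chromosome 12 from 64673304 to 64739560 had practically all of its counts on 1 of its 2 transcripts. Both transcripts separated the phenotypes in 2 of the 14, 1 transcript did in 6, and in another 6 the phenotypes separated only once the transcripts were summed. In 1 of the first 2, on chromosome 1 from 34662006 to 34689703, the smaller transcript had a mean of only 0.683 CPM, against 31.1 CPM for the larger. In the gene on chromosome 14 from 8518347 to 8539395 both transcripts separated, at 30.2 against 11.6 mean CPM for one and 10.4 against 3.97 for the other in high and low LDL-C baboons. In the gene on chromosome 14 from 9347934 to 9366427 only the larger one did, at 521.7 against 259 mean CPM, while the smaller had 101 against 56.6. How the expectation maximization shares reads between such transcripts affects these values and not the sum per gene.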

How the data were processed

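The authors deposited expected counts for each transcript, made in Partek Flow with an expectation maximization algorithm after trimming of paired-end reads and alignment (STAR 2.3.1j) against transcripts of Ensembl release 76, assembly PapAnu2; CASAVA 1.8 is also named in the submitters' processing notes. The expected counts of 29300 transcripts were summed over the 27533 genes and rounded. They are not scaled for length, so that levels of different genes are not comparable. Groups came from the sample titles, and all 12 libraries were used. The members and lists were chosen with earlier results of these data known.

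CPM was computed on the library total without the 2 most abundant genes, and the selection used autosomal genes with a mean CPM of 5 or more. The diet response (a term for each baboon) and the difference in response between phenotypes were tested over 12588 genes with a mean CPM of 1 or more. The tests were edgeR 4.0.16 glmQLFit and glmQLFTest (two-sided) with TMM and Benjamini-Hochberg adjustment; a call needed an unadjusted p under 0.05 and an adjusted p under 0.20, the FDR of the study. High and low LDL-C baboons were compared on libraries summed per baboon. The fits were tested on simulated counts first. R 4.3.3, limma 3.58.1, DESeq2 1.42.0, Python 3.11.15, numpy 2.4.6, pandas 2.3.3 and scipy 1.17.1 were used.

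The chow and HCHF libraries of a baboon are paired by the animal in the labels, and their deviations from the group means correlated across genes at 0.17, 0.086 and 0.22 in L1, L2 and L3 and at 0.36, 0.24 and 0.14 in H1, H2 and H3. The labels do not give the half-sib pairs, so that no term pairs low with high LDL-C baboons. Index sequences were shared by L1 with H2, L2 with H1 and L3 with H3 on both diets, and no term was fitted for them. The rule for genes to name took the 2 IDs with the widest gap in each direction; other genes are given by position and were chosen after their values were seen. Gene lists and cell type markers, held as symbols, could not be matched. Counts outside the 2 most abundant genes were fewest in the chow library of L2, although its total was the highest. A count of 0 was taken to allow up to 3 counts, with intervals and floors covering counting error only. P-values of the 2 diet tests measure how the change from chow to HCHF varied among these 6 animals. Those of the summed libraries measure the spread between the animals.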

Additional observations from a re-analysis of the deposited data

Results flagged for a closer look

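In 40 groups of 6 libraries that were checked, 6 held a library whose distance from the nearest other was a large part of the group's range (Dixon's ratio, above its 95% critical value). Chance flags about 1 in 20 groups of values that were not chosen, but most of these genes were chosen after their values were seen and on the same CPM, so that this rate does not apply here and the ratios are a description. In 4 of the 6 this was the HCHF library of H2. It had 921 CPM for the gene on chromosome 14 from 9347934 to 9366427 (ratio 0.77), 154 CPM for the gene on chromosome 14 from 9862810 to 9866067 (ratio 0.74) and 75.6 CPM for the gene on chromosome 10 from 63452822 to 63454585 (ratio 0.88). It also had the highest median relative level of the 80 genes, 1.48 (ratio 0.71), beside 1.19 to 1.27 in the other high LDL-C libraries. These genes share libraries and are not independent of each other. The chow library of H1 stood above the other high LDL-C libraries at 39.0 CPM for the gene on chromosome 2 from 83337032 to 83342149 (ratio 0.63).

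The chow library of L1 had 10441 CPM for the gene on chromosome 5 from 55576941 to 55587962 (ratio 0.99), beside 48.0 to 151 CPM in the other low LDL-C libraries.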

How the results depend on the processing

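The number of genes separating the phenotypes, 83 (80 higher and 3 lower in high LDL-C), was 15 (12 and 3) on the full library total, 35 (21 and 14) with TMM and 40 (28 and 12) with DESeq2 size factors. Other filters gave 95 genes (90 and 5) at a mean CPM of 1 or more and 71 (68 and 3) at 10 or more. All chromosomes gave 86 and unrounded counts 85. Leaving out 1 baboon gave 139 to 427 genes in all, 124 to 363 higher and 7 to 64 lower, with the lowest total without L2 and the highest without L1. Without the chow library of L1 and the HCHF library of H3, a setting chosen after seeing the data, there were 424 (412 and 12). Fewer libraries to order can only add genes. The gap of ENSPANG00000008479 turned from 0.55 to -0.12 on the full total, and that of ENSPANG00000010499 from 0.45 to -0.45 on the full total and -0.029 with TMM. Those of ENSPANG00000005386 and ENSPANG00000010492 turned from 0.08 to -1.21 and from 0.04 to -2.16 on the full total, and to -0.0085 and -0.12 with TMM. The cause was not tested.

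For the diet response, 0 genes were called in the main fit, 50 with DESeq2, 55 with no filter, and 0 to 65 without 1 baboon (65 without L1, 1 without H3). The difference in response between the phenotypes was called in 32 genes, in 4 with DESeq2, in 12 at a mean CPM of 5 or more, in 312 with no filter, in 22 without TMM factors, and in 0 to 86 without 1 baboon (0 without L1 or H3, 86 without L3). With no replicate block, that is, without the pairing of the libraries of a baboon, it was called in 0 and the diet response in 0. High against low LDL-C on summed libraries was called in 0 genes with edgeR and in 35 with DESeq2. The low number of counts outside the 2 most abundant genes limits the chow library of L2 most, where 1 count was 1.09 CPM.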
